A study of Rattus norvegicus with 13 samples.

Results

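Cytosolic ribosomal protein genes were followed on 13 arrays of left ventricle from pregnant rats. A gene was taken as a member when a probe set carried its symbol alone, the symbol began with Rpl, Rps or Rplp, and it was neither an Rps6k kinase nor a symbol ending in l or -ps, with or without a number after it. The rule found 42 genes among the 14217 genes with a probe set of their own, of which 29 belong to the large and 13 to the small ribosomal subunit. They have 46 of the 31042 probe sets tested, and where a gene has several the brightest was used. A further 30 probe sets list several ribosomal symbols at once and are not counted as members. Read to the letter, without the clause on a trailing number, the suffix rule gives 47 genes.

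The ribosome translates messenger RNA, and its proteins are made in matched amounts in nearly every cell, so their transcripts are among the most abundant in a tissue. The small subunit decodes the message and the large subunit joins the amino acids. Most of these messages start with a run of pyrimidines, the 5′ terminal oligopyrimidine (TOP) tract, through which mTOR signalling sets their translation. Ribosome content is known to rise when the heart grows.

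All rats were female Sprague-Dawley animals weighing 200 to 250 g when bought, kept on standard chow, and the labels give no age. The 5 control rats drank plain water, and treatment in the other groups lasted over days 1 to 20 of gestation. The 4 Met-fed rats had L-methionine in the water at 9 g/L, which raises homocysteine, and the 4 L-NAME rats had L-NAME, an inhibitor of nitric oxide synthesis, at 1 g/L. Hearts were taken on day 20 or 21. The study's methods describe rats in the third or the fourth pregnancy, with methionine given since the first, while the labels, which alone cover the L-NAME rats, give a single pregnancy's days, and the sources differ on how long treatment lasted. The labels do not say whether each array is a separate rat, so p-values measure the spread between these arrays. Each array gives a MAS5 signal intensity for every probe set, which was taken to log2. In such bulk tissue, fewer cells of a type and less RNA per cell cannot be told apart.

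The L-NAME arrays stood apart from the others over all probe sets. Their median signal was 34.2 to 36.9, against 25.7 to 29.2 on the control and Met-fed arrays, although the trimmed mean was 150 on all 13. The 18 probe sets for RNA added in fixed amounts (spike-ins) had a mean log2 signal of 10.32 ± 0.10 (SD, n = 5) on control, 10.14 ± 0.13 (SD, n = 4) on Met-fed and 9.91 ± 0.07 (SD, n = 4) on L-NAME arrays. The log2 ratio of 3′ to 5′ signal of beta-actin, a measure of RNA integrity and labelling, was 3.47 ± 0.14, 3.53 ± 0.17 and 2.48 ± 0.16 in that order. Both measures separated L-NAME from control without overlap (exact permutation test, 2-sided, p = 0.0159 each, the smallest that 4 against 5 arrays allow). L-NAME treatment and whatever else sets these arrays apart cannot be told apart in this design, and every L-NAME result below depends on how the arrays are put on 1 scale.

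The family was bright: 37 of the 42 members lay in the brightest 10% of all probe sets, from a mean log2 signal of 9.06, and the same 37 were in the brightest 5%. The other 5, Rpl28, Rpl30, Rpl39, Rps13 and Rps4y2, had means of 4.32 to 7.87. On every array all 42 members gave more signal than the highest of 27 bacterial control probe sets with no added RNA. Probe sets differ in how well they bind, so levels of different genes are not compared here.

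The starts of the messages are shown first, since they are what the family shares beside its name. Of the 42 members, 35 had a start site in the RefSeq table of build GRCr8. A run of 7 or more C or T bases, on the sense strand and reaching to within 5 bases of the start, was present in 23 of the 35 (65.7%), against 13.1% of the 33469 starts in the table. The median longest run there was 9 bases in the members and 3 in all starts. Below are 50 bases before and 20 after the annotated start. The pyrimidine run that reaches this window is in capitals where it had 7 or more bases. The first 3 genes had lower signal in L-NAME than in control hearts and the last 3 higher, under the scaling as deposited.
Rpl34, chr2:221962264-221962333, minus strand: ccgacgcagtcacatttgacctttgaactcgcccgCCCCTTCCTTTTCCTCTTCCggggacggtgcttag
Rps23, chr2:23814467-23814536, plus strand: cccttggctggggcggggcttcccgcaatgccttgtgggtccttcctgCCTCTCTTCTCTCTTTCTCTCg
Rps15, chr7:10068096-10068165, minus strand: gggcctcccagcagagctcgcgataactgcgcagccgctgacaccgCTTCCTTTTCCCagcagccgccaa
Rpl22, chr5:168117911-168117980, plus strand: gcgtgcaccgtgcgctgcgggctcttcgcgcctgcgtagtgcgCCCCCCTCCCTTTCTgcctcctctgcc
Rpl3, chr7:113507971-113508040, minus strand: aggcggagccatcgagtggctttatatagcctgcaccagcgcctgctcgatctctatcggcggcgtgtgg
Rps3, chr1:163195757-163195826, minus strand: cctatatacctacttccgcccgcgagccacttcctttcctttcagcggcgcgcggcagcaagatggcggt
The runs were 20 bases long in Rpl34, 21 in Rps23, 12 in Rps15 and 15 in Rpl22. Rpl3 and Rps3 had none of 7 bases that reached the window at the annotated start. In Rps3 a longer run of C and T lies further upstream, ends before the window and is left in lower case. A run that misses the window was not counted, so the counts depend on where the start is annotated. The 6 genes are examples and do not stand for their direction. Rpl21, also lower, had no run of 7 bases in the window, while Rpl14, Rps13 and Rps4y2, also higher, had runs of 14, 10 and 8. By the L-NAME against control call on the deposited scale, such a run was present in 16 of 24 matched members called lower, 4 of 6 called higher and 3 of 5 not called. These are counts of letters in a window, with no test.

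The first comparison asked whether methionine feeding moved the family. No ribosomal protein gene passed an adjusted p of 0.05 in limma between Met-fed and control hearts, 0 of 42, where 0.0% of all 31042 probe sets did. The median log2 change over the members was 0.01, beside 0.00 over all probe sets. At an unadjusted p under 0.05 there were 2 members, where 10.7% of all probe sets passed. The intervals were narrow: the 95% interval of the change lay within 1.25-fold in either direction for 36 of the 42 members and within 1.5-fold for 39. For all 37 bright members it lay within 1.5-fold.

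Rpl14, a protein of the large subunit, had the largest positive value in Met-fed hearts. Its log2 signal was 9.79, 9.88, 9.45, 9.84 and 9.43 on the control arrays and 10.25, 9.93, 9.71 and 9.96 on the Met-fed arrays. The groups overlapped, and the first Met-fed array was the highest. The change was 0.28 ± 0.12 (SE, n = 4 Met-fed and 5 control; limma, unadjusted p = 0.0314, adjusted p = 0.423). Rpl5, which with Rpl11 and 5S ribosomal RNA forms a particle that can also bind Mdm2, had a log2 signal of 11.08, 11.04, 10.90, 11.00 and 10.90 on control and 11.16, 11.14, 11.13 and 11.02 on Met-fed arrays. All but the lowest Met-fed value lay above every control value, with a change of 0.13 ± 0.06 (limma, adjusted p = 0.452).

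The other genes with the smallest p in this comparison were Rpl28, Rpl21, Rps3 and Rpl39. Rpl28 had the most negative value of all members, a change of -0.49 ± 0.23 in a dim probe set, and Rpl21 had -0.12 ± 0.06. Rps3, which lines the channel where messenger RNA enters, had 0.12 ± 0.08, and Rpl39, a small protein of the exit tunnel, had 0.22 ± 0.15. Their adjusted p in limma ranged from 0.468 to 0.631. Subunits gave the same picture, with a median of 0.01 over the 29 large and -0.01 over the 13 small subunit members.

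On single control arrays most members lay on the same side of the control mean, though whether they move together was not tested. Each control array was measured against the mean of the other controls. Of 42 members, 38 were below that mean on control array 3 and 37 on control array 5, but 1 on control array 4. The median over members ran from -0.10 to 0.10 on the log2 scale across the 5 control arrays, while the median of the brightest 10% of probe sets ran from -0.03 to 0.02. The spike-in median was -0.19 on control array 3 and 0.12 on control array 5. Measured against all 5 controls, the members' median on the Met-fed arrays was -0.06, 0.06, 0.06 and -0.06, inside the range of the controls.

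**Figure D1:**
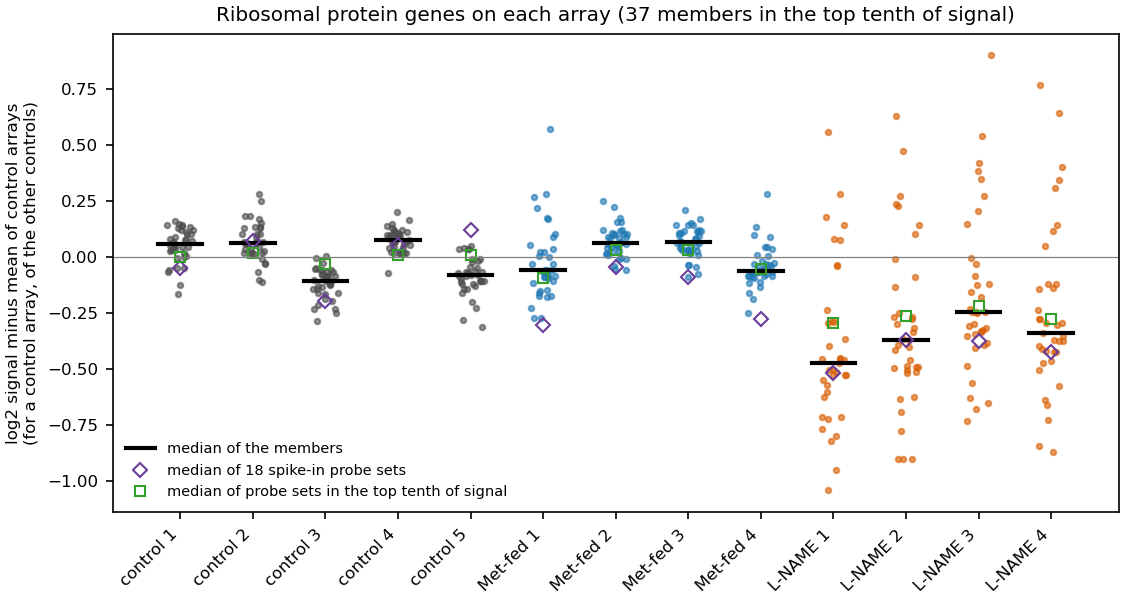
Log2 signal of the 37 bright ribosomal protein genes on each of 13 arrays (horizontal axis), minus the mean of the control arrays, or of the other control arrays for a control (vertical axis); points are genes, bars their median, diamonds the median of 18 spike-in probe sets and squares that of all probe sets in the brightest 10%. Control and Met-fed genes lie close together on each array, with an SD over genes of 0.051 to 0.171, while on the L-NAME arrays the SD is 0.356 to 0.377.

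On a scale set by the spike-ins instead, the Met-fed values were higher. Each array was centred on its 18 spike-in probe sets, a scaling chosen after the data were seen. In this comparison it moves every probe set by 0.18. The median change was then 0.18 and all 37 bright members had a value above 0. So did 2756 of the 3105 probe sets in the brightest 10%, which had a median of 0.15. The 95% interval lay within 1.25-fold for 16 of the 42 members on this scale and within 1.5-fold for 36. For the 3105 probe sets in the brightest 10% these counts were 1103 and 2769. None passed an adjusted p of 0.05 in limma, with 27 of 42 under an unadjusted p of 0.05, where 17.0% of all probe sets and 32.0% of the brightest 10% were.

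The second comparison, L-NAME against control, is not in the study's text. On the deposited scale 28 of 42 members were lower and 7 higher at an adjusted p under 0.05 in limma, where 17.0% of all probe sets were lower and 28.7% higher. The median log2 change was -0.35 over the members and 0.22 over all probe sets. Bright probe sets as a whole were lower on these arrays, and the family was close to them. Of the 1553 probe sets in the brightest 5%, 64.8% were called lower and 8.76% higher, with a median change of -0.36, while 27 of the 37 members there (73.0%) were called lower and 5 higher, with a median of -0.37. Groups did not overlap for 25 members below and 6 above control, where 14.5% and 25.8% of all probe sets did so.

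**Figure D2:**
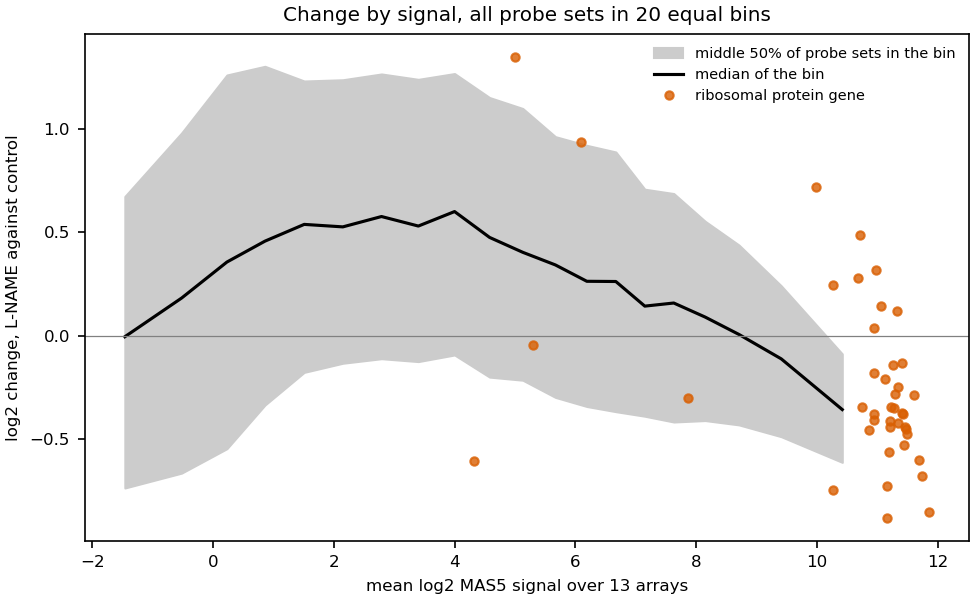
Log2 change, L-NAME against control (vertical axis), by mean log2 MAS5 signal over 13 arrays (horizontal axis), with the median and middle 50% of all probe sets in 20 bins of equal size and 1 point per ribosomal protein gene. The bin median goes below 0 as signal rises, to -0.36 in the brightest bin, where 37 of the 42 genes lie on both sides of it.

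The direction of most members turned with the scaling. Centring each array on its median, which moves all probe sets by -0.43, gave 34 lower and 2 higher members with a median of -0.77, where 79.2% of the brightest 10% of probe sets were lower and 4.12% higher, and 9232 and 4952 of all 31042. Quantile normalization gave 8 lower (19.0%) and 17 higher (40.5%) with a median of 0.06, where 36.6% of the brightest 10% were lower and 29.4% higher, and 21.9% and 22.0% of all probe sets. Centring on the spike-ins, which moves all probe sets by 0.40, gave 6 lower (14.3%) and 14 higher (33.3%) with a median of 0.06, where 20.5% of the brightest 10% were lower and 41.4% higher, and 7.17% and 43.3% of all probe sets. Of the members called lower as deposited, Rpl18, Rpl19, Rpl23a, Rpl24 and Rps16 were called higher after quantile normalization, Rpl19 for example at -0.29 and 0.26, and Rpl18 and Rpl23a also after spike-in centring. Across these 3 scalings and the deposited one, 26 of 42 members changed sign, 9 kept 1 sign without a call in each, and 7 were called in the same direction each time. Those 7 were 5 lower and 2 higher, where 7.08% of all probe sets and 19.6% of the brightest 10% were lower, and 15.6% and 4.12% higher.

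**Figure D3:**
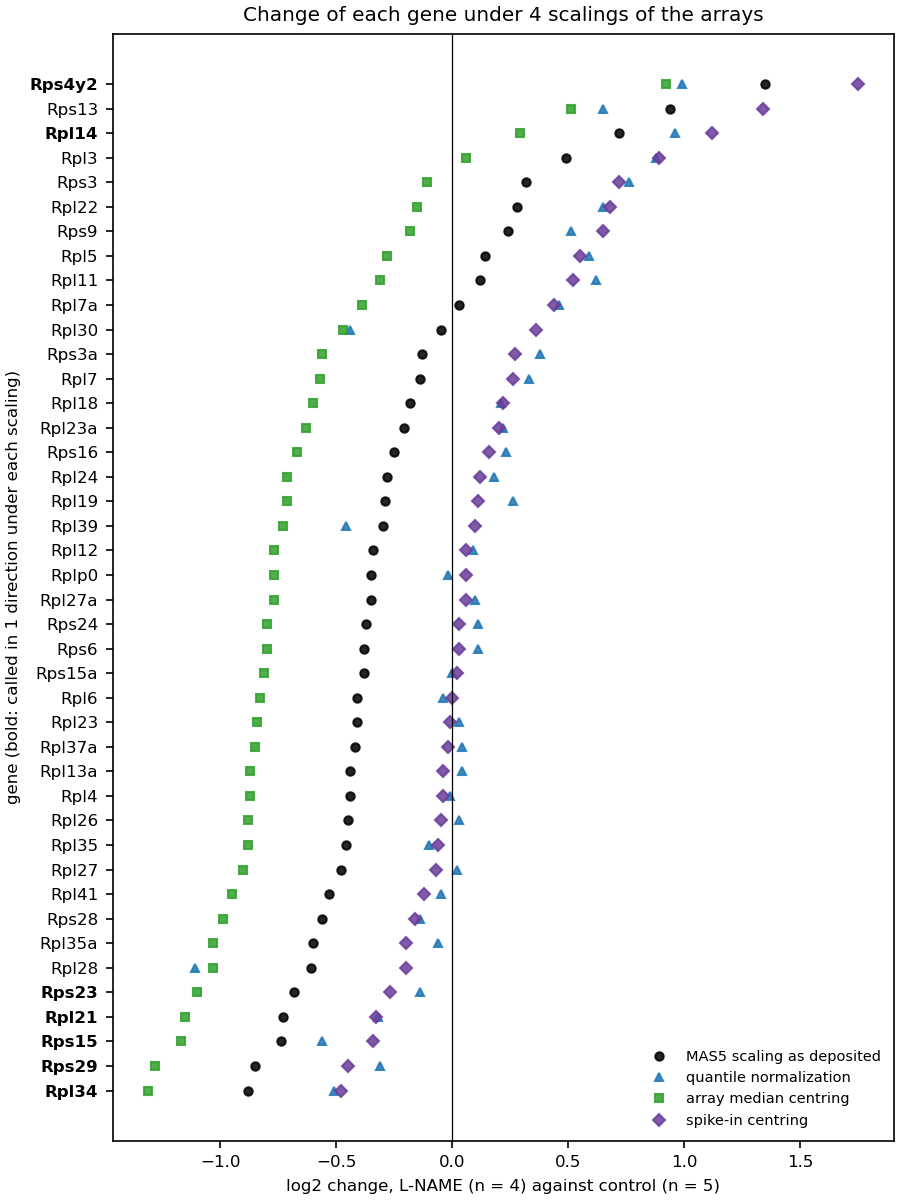
Log2 change, L-NAME (n = 4) against control (n = 5), of each of 42 ribosomal protein genes (rows) under 4 scalings of the arrays, with genes in bold called in 1 direction under each. Median centring lies to the left of the deposited scale and spike-in centring to its right, and 26 genes have marks on both sides of 0.

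The 5 members lower under each scaling were Rpl34, Rps29, Rps15, Rpl21 and Rps23. Rpl34, a large subunit protein, had a log2 signal of 11.50, 11.39, 11.36, 11.53 and 11.43 on control arrays, 11.27, 11.50, 11.47 and 11.33 on Met-fed arrays, and 10.40, 10.54, 10.71 and 10.60 on L-NAME arrays. Every L-NAME value lay below every other value. It was lower by 1.84-fold, a log2 change of -0.88 ± 0.07 (SE, n = 4 and 5; limma, adjusted p = 1.17e-07), and its change ran from -1.31 to -0.48 over the 4 scalings.

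Rps29, a zinc-binding protein of the small subunit head, had 12.13, 12.18, 11.96, 12.21 and 12.17 on control arrays, 11.86, 12.23, 12.21 and 11.97 on Met-fed arrays and 11.18, 11.23, 11.45 and 11.26 on L-NAME arrays. The L-NAME values did not overlap the others, and the change was -0.85 ± 0.08 (limma, adjusted p = 6.22e-07), from -1.28 to -0.31 over the scalings. Rps15, which sits near the decoding site of the small subunit, had 10.60, 10.59, 10.35, 10.56 and 10.30 on control arrays, 10.57, 10.59, 10.53 and 10.45 on Met-fed arrays and 9.71, 9.58, 9.83 and 9.82 on L-NAME arrays. Again no L-NAME value reached the others, with a change of -0.74 ± 0.08 (limma, adjusted p = 1.76e-06), from -1.17 to -0.34 over the scalings.

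Rpl21 of the large subunit and Rps23, a small subunit protein that takes part in decoding accuracy, followed. Rpl21 went from 11.43 ± 0.09 (SD, n = 5) in control to 10.70 ± 0.07 (SD, n = 4) in L-NAME hearts, a log2 change of -0.73 on the deposited scale and of -1.15 to -0.32 over the scalings. Rps23 went from 11.96 ± 0.07 to 11.28 ± 0.11, a change of -0.68, and of -1.10 to -0.14 over the scalings, where its adjusted p under quantile normalization was 0.0479 in limma. Neither gene overlapped between the groups.

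Of the members higher under each scaling, Rpl14 was bright and Rps4y2 dim. Rpl14 had 10.24, 10.31, 10.58 and 10.45 on the L-NAME arrays, each above the control values given earlier. It was higher by 1.65-fold, a log2 change of 0.72 ± 0.12 (limma, adjusted p = 0.000119), from 0.29 to 1.12 over the scalings, where its adjusted p after median centring was 0.0444. Its second, dimmer probe set had a change of 0.25 ± 0.17 and did not pass (adjusted p = 0.25 in limma). Rps4y2, a copy of Rps4, had 4.02, 5.43, 4.68, 4.92 and 4.26 on control and 5.99, 5.88, 6.03 and 6.14 on L-NAME arrays. All L-NAME values lay above the controls, with a change of 1.35 ± 0.32 (limma, adjusted p = 0.00227), in a probe set of about median brightness.

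Rpl3, a core large subunit protein close to the site of peptide bond formation, and Rps13, Rps3, Rpl22 and Rps9 were also called higher on the deposited scale. Rpl3 had a log2 signal of 10.60, 10.55, 10.45, 10.64 and 10.44 on control arrays, 10.82, 10.48, 10.50 and 10.67 on Met-fed arrays and 10.82, 11.01, 11.08 and 11.18 on L-NAME arrays. The L-NAME values were above all controls, while the lowest of them matched the highest Met-fed value to 2 decimals. The change was 0.49 ± 0.09 (limma, adjusted p = 0.000201) and stayed above 0 in each scaling, at 0.06 with an adjusted p of 0.59 after median centring. Rps13, a small subunit protein read by a dim probe set, had a change of 0.94 ± 0.22, with 7.51 on L-NAME array 1 and 6.39 to 6.49 on the other 3. Its change stayed above 0 and missed the threshold after median centring (0.51; adjusted p = 0.0654 in limma).

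Rps3 (0.32 ± 0.08), Rpl22 (0.28 ± 0.06), a large subunit protein that also binds other RNAs, and Rps9 (0.24 ± 0.09) turned below 0 after median centring, to -0.11, -0.15 and -0.18. Rps3 and Rpl22 did not overlap between L-NAME and control arrays. Rps9 overlapped, and its call was lost without L-NAME array 2, 3 or 4 or control array 3 or 5, with an adjusted p of 0.0617 to 0.104 in limma.

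**Figure D4:**
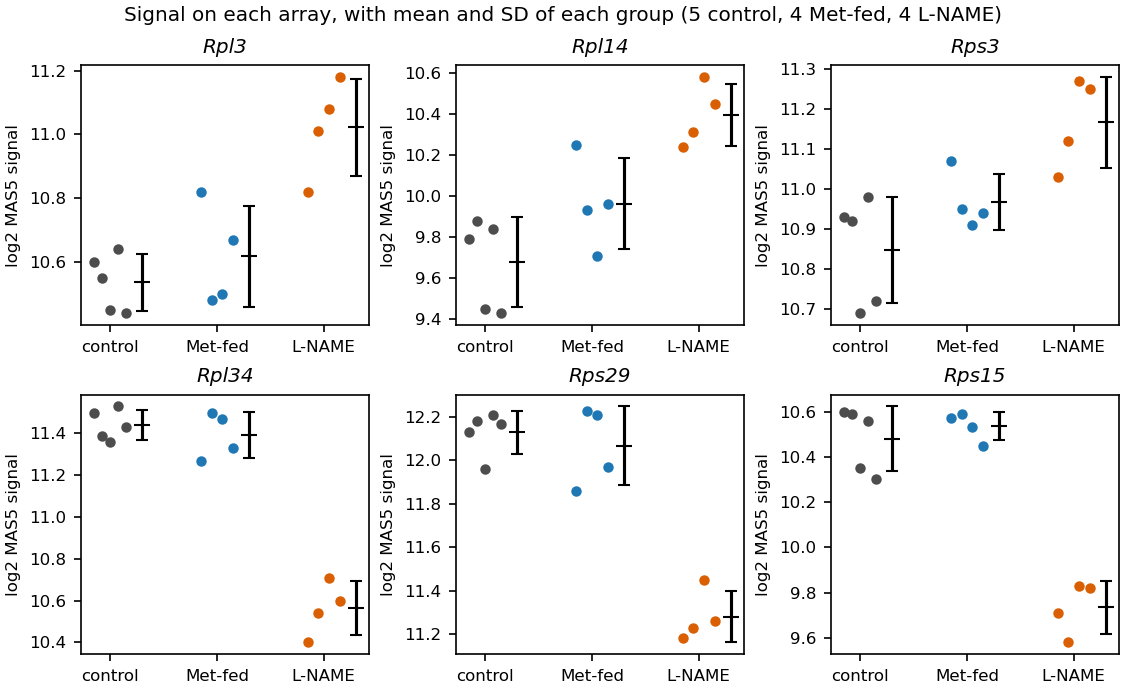
Log2 MAS5 signal (vertical axes, each with its own range) of 6 ribosomal protein genes on the control (5), Met-fed (4) and L-NAME (4) arrays, each group's mean ± SD drawn next to its points. On the scale as deposited, Rpl3, Rpl14 and Rps3 are higher on L-NAME than on control arrays, while Rpl34, Rps29 and Rps15 are lower, with no overlap in any of the 6 panels between these groups.

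Among other members called lower on the deposited scale, Rpl35a (-0.60 ± 0.07), Rps28 (-0.56 ± 0.07) and Rpl41 (-0.53 ± 0.08) stayed below 0 under each scaling, at -0.06, -0.14 and -0.05 after quantile normalization. Rpl41 encodes a very short, basic peptide, and Rpl35a and Rps28 are among the genes mutated in Diamond-Blackfan anaemia. Rpl27 (-0.48 ± 0.07) turned to 0.02 after quantile normalization. Rpl28, read by a dim probe set, had a change of -0.61 ± 0.23 and lost its call without any 1 of control arrays 1, 4 and 5 or L-NAME arrays 1, 2 and 3 (adjusted p = 0.0578 to 0.107 in limma).

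Of the members named for their role, Rplp0, Rps6 and Rpl13a were called lower on the deposited scale and Rpl5 and Rpl11 were not called. Rplp0, the base of the stalk that recruits elongation factors, had 10.84 ± 0.07 (SD, n = 5) in control, 10.86 ± 0.12 (SD, n = 4) in Met-fed and 10.49 ± 0.10 (SD, n = 4) in L-NAME hearts, and its change of -0.35 ± 0.07 on the deposited scale became 0.06 on the spike-in scale. Rps6, the substrate of S6 kinase, had 11.54 ± 0.08, 11.53 ± 0.04 and 11.16 ± 0.07, with a change of -0.38 ± 0.06 that turned to 0.11 and 0.03 after quantile normalization and spike-in centring. Rpl13a, which can act in an inhibitory complex on inflammatory messages, had a change of -0.44 ± 0.07 that became 0.04 and -0.04 in those scalings. Rpl5 (0.14 ± 0.06) and its partner Rpl11 (0.12 ± 0.08) were not called on the deposited scale, with adjusted p of 0.0606 and 0.279 in limma. Both were called lower after median centring (-0.28 and -0.31) and higher after quantile normalization (0.59 and 0.62) and spike-in centring (0.55 and 0.52). Without control array 1, Rpl5 passed on the deposited scale (0.17; adjusted p = 0.0384 in limma).

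**Figure D5:**
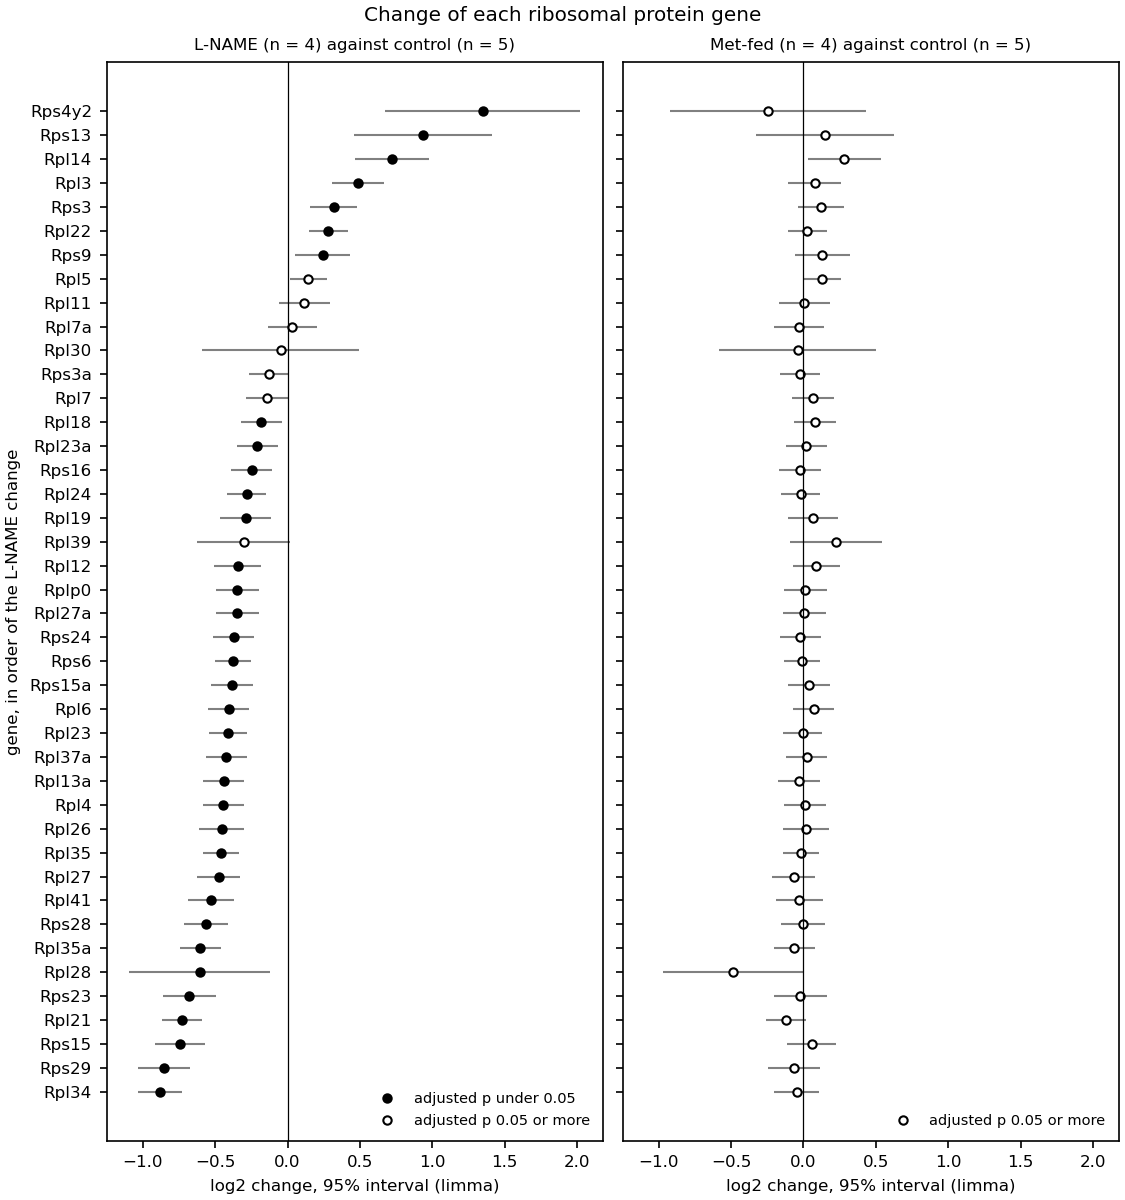
Log2 change with its 95% interval (horizontal axes) of each of 42 ribosomal protein genes, in order of the L-NAME change, for L-NAME against control (left) and Met-fed against control (right), both sharing the 5 control arrays; filled points have an adjusted p under 0.05 in limma. On the left 28 genes are filled below 0 and 7 above, on the deposited scale, and on the right none is filled.

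On the L-NAME arrays the members changed by unequal amounts, which no shift of a whole array alters. Over the 37 bright members, the SD of the log2 difference from control was 0.051 to 0.086 in controls, 0.067 to 0.171 in Met-fed and 0.356 to 0.377 in L-NAME hearts. Over all probe sets in the brightest 10% it was 0.148 to 0.195, 0.177 to 0.295 and 0.516 to 0.550, more than over the members in each group. These 37 members all lie in the brightest 5%, for which this SD was not taken, so the 2 sets differ in brightness. The difference between Rpl3 and Rpl34 on the same array, a pair picked after their values were seen, was -0.91 ± 0.06 (SD, n = 5) in control, -0.78 ± 0.27 (SD, n = 4) in Met-fed and 0.46 ± 0.08 (SD, n = 4) in L-NAME hearts. For Rps3 and Rps29, picked in the same way, it was -1.28 ± 0.10, -1.10 ± 0.24 and -0.11 ± 0.07. Only the change of these differences between arrays can be read, not their size, and they have no test.

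Of the 4 members with more than 1 probe set, Rpl7 differed between its probe sets. The brighter had a change of -0.14 ± 0.07 in L-NAME against control (adjusted p = 0.107 in limma), and the other, bright as well, 0.55 ± 0.07 (adjusted p = 1.61e-05 in limma). Both probe sets of Rpl3 had positive changes and both of Rps24 negative ones on the deposited scale. Ribosomal protein genes have many processed copies in the genome, and a probe set can bind messages from them. The 30 probe sets that list several ribosomal symbols had 4 called higher and 20 lower (66.7%) in L-NAME against control, with a median of -0.43. Of these 30, 27 lay in the brightest 5% of probe sets, where 64.8% were lower.

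The third comparison set L-NAME against Met-fed hearts and used the same L-NAME arrays. On the deposited scale 29 of 42 members were lower and 5 higher, where 14.9% of all probe sets were lower and 25.4% higher, and 59.7% and 6.95% in the brightest 5%. The median change was -0.36 over members and 0.25 over all probe sets. Rpl34 (-0.83 ± 0.08), Rps15 (-0.80 ± 0.09), Rps29 (-0.79 ± 0.09), Rps23 (-0.66 ± 0.09), Rpl21 (-0.61 ± 0.07), Rps28 (-0.56 ± 0.08) and Rpl35 (-0.44) were lower under each of the 4 scalings, and Rps4y2 (1.59 ± 0.34) was higher under each. That is 7 lower and 1 higher, where 8.18% and 12.3% of all probe sets and 23.2% and 3.09% of the brightest 10% were, while 20 members changed sign. Among those with 1 sign, Rpl14 (0.44 ± 0.13), Rpl3 (0.41 ± 0.09), Rps13 (0.79 ± 0.24), Rpl6 (-0.48 ± 0.07), Rpl35a (-0.54 ± 0.07), Rpl41 (-0.50 ± 0.08) and Rpl39 (-0.53 ± 0.16) were called on the deposited scale but not in each scaling. Rpl39 also lost its call without L-NAME array 2 (adjusted p = 0.0536 in limma). Rpl22 (0.25 ± 0.07) turned to -0.11 after median centring.

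Other parts of the translation machinery were counted in the same fit. In Met-fed hearts no gene of any of these lists passed. In L-NAME against control, 28.7% of all probe sets were higher and 17.0% lower as deposited, and 43.3% and 7.17% on the spike-in scale, and the counts below stand beside those shares. On the deposited scale, 4 of 11 elongation and release genes were higher and 1 lower, among them Eef1d (0.50 ± 0.08) and Eef2 (0.44 ± 0.11) higher and Abce1 (-0.28 ± 0.07) lower, which turned to 0.12 on the spike-in scale. Of 34 initiation genes 14 were higher and 14 lower, with Eif2b4 at -2.29 ± 0.13, Eif3b at -1.82 ± 0.09 and Eif2s2 at -0.58 ± 0.05. Ribosome biogenesis had 20 of 54 higher, such as Sbds, which matures the large subunit (1.09 ± 0.11), and 14 lower, such as Rrp1 (-1.89 ± 0.11) and Bop1 (-1.08 ± 0.12).

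Of 29 genes around mTOR and translation control 8 were higher and 9 lower, with Tia1, which binds TOP messages, at 1.59 ± 0.23, Rheb, the activator of mTOR, at -0.84 ± 0.07, and Max at -0.72 ± 0.09. The proteasome, another large complex made in matched amounts, had 14 of 33 higher and 10 lower, with Psmd4 at 1.57 ± 0.13, Psmb5 at -1.09 ± 0.08 and Psmd12 at -0.79 ± 0.07. Mitochondrial ribosomal protein genes had 22 of 73 higher and 31 lower, with a median of -0.12, and Mrpl54 (-1.44 ± 0.09), Mrpl39 (-1.44 ± 0.11) and Mrps15 (-1.26 ± 0.09) lower. On the spike-in scale, which moves every probe set up, these counts became 10 higher and 0 lower for elongation, 23 and 6 for initiation, 33 and 6 for biogenesis, 16 and 5 for mTOR, 23 and 3 for the proteasome and 39 and 16 for the mitochondrial ribosome. Apart from Abce1, each gene named so far from these lists kept its sign in the 4 scalings. Eef1d and Eef2 were close to 0 after median centring, at 0.08 and 0.01.

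In Met-fed against control the genes of smallest p in these lists were Eef2 (0.34 ± 0.11), Eif2s3 (-0.20 ± 0.06), Rrp1 (-0.31 ± 0.11), Sesn1 (-0.61 ± 0.18), Psmc4 (-0.26 ± 0.10) and Mrpl52 (0.84 ± 0.24), with an adjusted p of 0.281 to 0.365 in limma.

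Close relatives of the members were read too. Rpsa and Rack1, ribosomal proteins with other names, had values of -0.15 ± 0.06 and -0.11 ± 0.07 in L-NAME against control and were not called. Both turned with the scaling, to -0.57 and -0.54 after median centring and to 0.25 and 0.29 on the spike-in scale, where both were called higher. Of the paralogs, Rpl7l1 (0.53 ± 0.10) was higher and Rpl26l1 (-0.83 ± 0.26) lower on the deposited scale, with the same sign in the other 3. Rpl3l, the muscle form of Rpl3, was 10.36 in control, 10.24 in Met-fed and 10.32 in L-NAME hearts, a change of -0.03 ± 0.11 in L-NAME against control that ran from -0.46 to 0.37 over the scalings. Rpl3 itself was called higher on the deposited scale.

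Markers of heart muscle cells moved with the lower members on the deposited scale. Of 11 measured cardiomyocyte markers 10 were lower in L-NAME hearts and 0 higher, with a median of -0.62, and their summed signal was 37859 to 41555 in control, 31450 to 42847 in Met-fed and 25320 to 29586 in L-NAME hearts. All 11 were bright in control hearts, at mean log2 signals of 10.90 to 12.23, as in ventricle, and lay in the brightest 5% of probe sets, where 64.8% were lower with a median of -0.36. On the spike-in scale 6 were lower and 1 higher, with a median of -0.22, where 20.5% and 41.4% of the brightest 10% were, and the list's median was -0.11 after quantile normalization and -1.05 after median centring. Of other cell type markers, 4 of 7 for endothelium, 2 of 7 for fibroblasts, 2 of 5 for smooth muscle and 5 of 9 for leukocytes were lower on the deposited scale, and 1, 0, 2 and 2 were higher, beside 17.0% and 28.7% of all probe sets. Leukocyte markers summed to 4188 to 4906 on control and 2838 to 3765 on L-NAME arrays. Endothelial markers summed to 5912 to 6662 and 4732 to 5248. For skeletal muscle the sums were 4251 to 4744 and 3122 to 3487, and for fat 2885 to 3752 and 2109 to 2594. These sums for skeletal muscle and fat rest on few bright markers, as 2 of 7 and 1 of 5 lay in the brightest 5%. The median log2 change of these lists went the other way, at 0.233 for skeletal muscle and 0.197 for fat on the deposited scale. Only 1 of the 5 fat markers gave more signal than the bacterial controls on every array. Sums overlapped for fibroblasts, smooth muscle, blood and atrium. All these sums are on the deposited scale. On the spike-in scale 2 leukocyte markers were higher and 2 lower, with a median of 0.075, beside 43.3% and 7.17% of all probe sets. For endothelium 3 were higher and 1 lower on that scale, with a median of 0.037. The counts there were 3 and 1 for fibroblasts, 2 and 1 for smooth muscle, 3 and 1 for skeletal muscle and 0 and 0 for fat. On the deposited scale 1 of 5 blood markers was higher and 1 lower, as for 7 of skeletal muscle. On that scale 0 of 4 atrial markers were called and 1 of 5 for fat was lower. Their part in the ribosomal values was not tested.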

How the data were processed

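RNA of left ventricle was measured on 13 Affymetrix rat arrays, and groups were taken from the sample titles. The labels hold 5 controls and the study's methods fewer, so all 5 were used. The authors used MAS5, per the labels without a version, and deposited linear intensity values. With 2% trimmed from each end, all arrays had a mean of 150, the mark of a common scaling target. No depth applies, and the number of arrays limits the precision.

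Signals were taken to log2 with no offset. Of 31099 probe sets the 57 controls were dropped, and limma 3.58.1 under R 4.3.3 was fitted to the other 31042, with 1 coefficient per group, a variance that follows the signal and no covariate. Benjamini-Hochberg adjustment covered all of them, and adjusted p under 0.05 counted as called. Errors of changes are standard errors, and folds are antilogs of log2 changes. Exact permutation tests were 2-sided, by scipy 1.17.1. The fit was tested on simulated data. Figures were drawn with matplotlib 3.10.9.

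Gene names came from the platform annotation, which can be old: 20826 probe sets had 1 symbol, 436 several and 9780 none, and 40 of 42 members matched RefSeq by gene number. Start sequences came from RefSeq, build GRCr8. The members, lists and tests were chosen with earlier results of these data known. Named members were the 10 largest rises and 10 largest falls past the threshold in each L-NAME comparison, the 6 smallest p in Met-fed against control, and 17 symbols chosen for their role, of which 9 are members. From each list the 3 genes of smallest p in L-NAME and the 1 in Met-fed against control were named. Rpl35, Rpl7, Rps24, Rpl18, Rpl19, Rpl23a, Rpl24 and Rps16 were named after their values were seen, as were the pairs compared on 1 array. Quantile normalization, median centring, offsets, filters, other tests, a replicate block and left-out arrays were alternatives. Spike-in centring, the paired removal of Met-fed arrays and other readings of the member rule were added after the data were seen.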

Additional observations from a re-analysis of the deposited data

Results flagged for a closer look

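Rps13 in the L-NAME group had 1 array far from the others: L-NAME array 1 had a log2 signal of 7.51 and the other 3 had 6.39 to 6.49, so the gap was 0.905 of the group's range. It was the 1 such value among 75 groups of 4 or 5 arrays examined, where chance gives about 1 in 20. Rps13 is read by a dim probe set.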

How the results depend on the processing

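Scaling between arrays was the choice that changed the results. Array median centring gave 2 members higher and a median change of -0.772 in L-NAME against control, and 1 higher and -0.724 against Met-fed. Over all 42 members, the sign against control turned from that of the deposited scale for 6 under median centring, 17 under quantile normalization and 15 under spike-in centring, 3, 15 and 11 of them called as deposited, and 0, 5 and 2 called in opposite directions. Against Met-fed it turned for 12, 6 and 6 under quantile normalization, median centring and spike-in centring, and for 16, 10 and 18 in Met-fed against control, none called. Of the members named by rule in each comparison, median centring reversed Rpl11 (-0.309), Rpl22 (-0.145), Rpl5 (-0.281), Rps3 (-0.107) and Rps9 (-0.181) against control and Rpl22 (-0.113) against Met-fed. Quantile normalization gave 17 higher, 8 lower and a median of 0.064 against control, and 13, 8 and 0.014 against Met-fed, and among those reversed Rpl13a (0.040), Rpl27 (0.023) and Rps6 (0.108) against control. Spike-in centring gave 14 higher, 6 lower and 0.056 against control, and 10, 16 and -0.129 against Met-fed, with a median of 0.181 in Met-fed against control. Among those it reversed Rpl39 (0.099), Rplp0 (0.056) and Rps6 (0.026) in L-NAME and Rpl21 (0.055) in Met-fed against control. The shifts follow from how each scaling is built, and which scale is right was not tested. A t-test with unequal variances gave 2 higher in L-NAME against Met-fed, and the 30 probe sets with several ribosomal symbols gave 4 higher against control and 1 against Met-fed, with a median of -0.461 there.

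With each array left out in turn, L-NAME against control kept 6 to 8 higher and 25 to 28 lower with a median of -0.384 to -0.310, L-NAME against Met-fed 5 to 6 and 26 to 29 with -0.395 to -0.315, and Met-fed against control 0 and 0 with -0.021 to 0.038. The methods' t-test after adjustment gave 7 higher and 27 lower, 4 and 29, and 0 and 0. A count of 0 members in Met-fed against control held in every setting run.

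Replicate numbers did not pair the arrays, with correlations of same-numbered deviations from -0.211 to 0.236 and control array 5 without a partner. A replicate block gave 6 higher and 27 lower with a median of -0.381 in L-NAME against control, 5 and 29 against Met-fed, and 0 and 0 with -0.015 in Met-fed against control. Dim probe sets vary most on the log2 scale, which limits what Rpl28, Rpl30, Rpl39, Rps13 and Rps4y2 can show.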
